A study of Homo sapiens with 6 samples.

Results

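Peroxisomes are small organelles, bounded by a single membrane, in which liver cells shorten very long and branched fatty acids, start the synthesis of ether lipids, and oxidise glycolate and several amino acids, with hydrogen peroxide as a by-product that catalase breaks down. Their matrix enzymes are made in the cytosol and imported fully folded by the peroxins, the products of the PEX genes, which also insert the organelle's membrane proteins and govern its division. In liver many of the oxidation genes are targets of PPARA, a nuclear receptor activated by fatty acids. A set of 31 genes of this organelle, chosen by name as known peroxins and peroxisomal enzymes, was taken from a count table of 58735 genes. It held 13 peroxins, 9 enzymes of beta- and alpha-oxidation, 3 of ether lipid synthesis, 4 of glyoxylate and amino acid metabolism, and a pair formed by catalase and the matrix protease LONP2. All 31 passed the filter on low counts.

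The 6 libraries came from HepaRG, 1 human hepatic line whose cells mature in DMSO into hepatocyte-like and biliary-like cells. They are labelled PTPF in 3 cases and STATF in 3. All were matured in 1.8% DMSO, given siRNA for 48 h, and then exposed for 24 h to 800 µM oleic and 400 µM palmitic acid, so that both groups were fatty acid loaded. Per the labels' protocols the siRNAs were aimed at STAT3 or PTPRD, or were a control siRNA, but the labels do not spell out PTPF and STATF, and no library labelled as control siRNA or as free of fatty acids was analysed here. Nothing in the labels says whether the replicates were separate cultures, and the p-values rest on a spread among libraries that may be technical only.

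STAT3, a cytokine-activated transcription factor, had 436, 437 and 457 CPM (counts relative to library size, scaled by TMM) in PTPF libraries, against 114, 132 and 113 CPM in STATF libraries. PTPRD, a receptor-type tyrosine phosphatase, had 10.04, 12.8 and 11.7 CPM in PTPF libraries, against 11.2, 12.2 and 11.1 CPM in STATF libraries, so that one siRNA target separated the labels and the other did not. Every direction below is therefore between libraries by label. Total counts were 33225627 to 36785080 in PTPF and 36443380 to 40796767 in STATF libraries. In edgeR 17844 genes were tested, and 21.6% of them passed at an adjusted p of 0.05, 11.6% lower and 10.1% higher in PTPF libraries. All 10 hepatocyte markers were detected, with summed levels of 48082 to 55933 CPM in PTPF and 42944 to 44041 CPM in STATF libraries. The sum and the members differ in direction, as 4 of the 10 were lower (ALB, APOA1, CYP3A4 and TF) and 3 higher (median log2 fold change -0.13). The summed levels were 122 to 134 CPM in PTPF and 166 to 182 CPM in STATF libraries for 6 biliary markers, of which EPCAM was at 0 in all 6 libraries. They were 24.1 to 26.9 CPM in PTPF and 31.2 to 33.5 CPM in STATF libraries for 6 mesenchymal markers, with VIM at 0 to 6 counts. They were 48.7 to 54.2 CPM in PTPF and 64.9 to 69.5 CPM in STATF libraries for 7 endothelial and immune markers, among which KDR was lower (log2 fold change -0.69) and CD14 higher (0.80). The part of these shifts in the results below was not tested, and in bulk RNA fewer cells of a type and less RNA per cell cannot be told apart.

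The enzymes differ in the address that takes them into the organelle. Most carry a signal at the very end of the protein that PEX5 recognises, classically serine-lysine-leucine, and a few carry a longer signal near the start that PEX7 recognises. Among 19499 protein-coding genes, 0.451% ended in codons of the first kind (serine, alanine or cysteine, then lysine, arginine or histidine, then leucine or methionine), and so did 9 of the 18 enzymes but none of the 13 peroxins. The coding ends of enzymes from each arm are shown because they are what the import receptors among the peroxins act on. The last 3 codons before the stop codon are in capitals, from GENCODE release 29 transcripts on GRCh38.
EHHADH: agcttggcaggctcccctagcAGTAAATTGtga
PECR: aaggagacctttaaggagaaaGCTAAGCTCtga
SCP2: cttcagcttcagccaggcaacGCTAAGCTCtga
HSD17B4: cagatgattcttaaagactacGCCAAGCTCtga
GNPAT: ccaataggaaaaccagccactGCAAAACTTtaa
DAO: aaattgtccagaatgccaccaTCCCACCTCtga
PIPOX: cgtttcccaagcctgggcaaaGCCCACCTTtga
LONP2: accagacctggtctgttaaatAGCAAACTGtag
CAT: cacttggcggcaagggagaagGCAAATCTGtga
HAO1: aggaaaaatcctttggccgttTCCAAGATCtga
AGXT: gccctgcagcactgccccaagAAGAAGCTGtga

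In the first 8 of these the capitals fit the rule. CAT, HAO1 and AGXT end in variants outside it, although all are known to enter peroxisomes through PEX5. Among those with the first signal, the ends of EHHADH, PECR and DAO lie at chr3:185192226-185192258 (minus strand), chr2:216039275-216039307 (minus strand) and chr12:108900503-108900535 (plus strand). The second signal, 9 codons sought within the first 40, was found in 0.128% of protein-coding genes and in 2 of the 18 enzymes, the thiolase ACAA1 and the alpha-oxidation enzyme PHYH. A signal that reaches past codon 40, or departs from the pattern sought, would be missed, so the other enzymes may still hold one. Its codons are in capitals here.
ACAA1: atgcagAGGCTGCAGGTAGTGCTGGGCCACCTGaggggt
PHYH: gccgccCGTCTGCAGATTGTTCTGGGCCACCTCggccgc

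These stretches lie at chr3:38136997-38137035 and chr10:13299986-13300024, both on the minus strand. Of the 9 enzymes whose ends fit the rule for the first signal, 5 were lower in PTPF libraries, 1 was higher and 3 did not pass the test. Of the 9 whose ends fall outside the rule, 5 were lower and 4 did not pass. These include CAT, HAO1 and AGXT, so the split is by the rule and not by import route.

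Levels can be compared between genes only per length, and are given as CPM per kilobase over all 6 libraries. The length is that of all annotated exons of a gene, not of the transcript expressed. HSD17B4 is given 10664 bases and CAT 3590, for coding parts of 736 and 527 codons. Part of the order between genes may therefore come from annotation. Catalase, at 77.9, and AGXT, the liver's alanine-glyoxylate aminotransferase, at 63.9, were the most abundant of the 31, ahead of ACAA1 (40.8), the bifunctional enzyme EHHADH (36.9) and the glycolate oxidase HAO1 (35.2). Peroxins were less abundant, with a median of 6.04 against 20.4 for the oxidation enzymes. PEX6, the motor that recycles PEX5, led them at 23.2, while PEX11G, a division factor, had the least at 2.62. FAR1, the reductase that makes the fatty alcohols of ether lipids, stood far below the rest at 0.108.

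**Figure D1:**
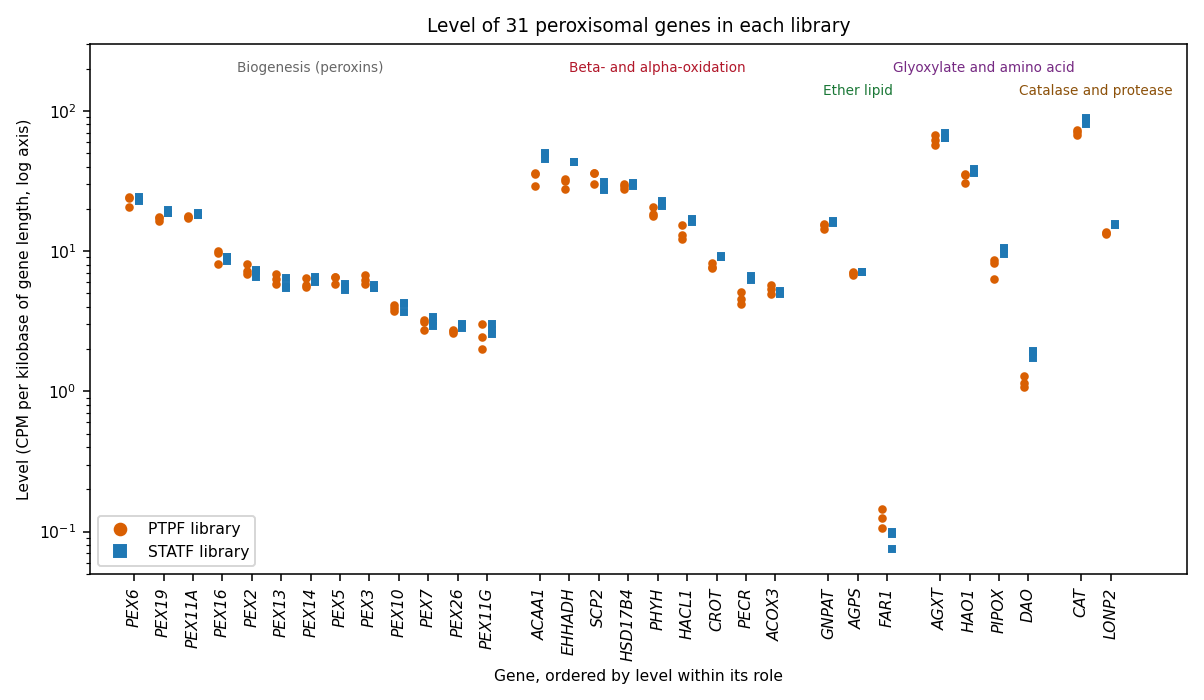
Level of each of the 31 genes (CPM per kilobase of gene length, log axis), with circles for PTPF and squares for STATF libraries, grouped by role and ordered by level within it. CAT and AGXT lie at the top and FAR1 at the bottom, and the differences between groups are small beside those between genes.

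Most enzymes were lower in PTPF libraries, and most peroxins did not pass the test. Of the 18 enzymes 10 were lower and 1 was higher, at a median log2 fold change (PTPF over STATF) of -0.21. Of the 13 peroxins 1 was lower and 1 was higher, at a median of -0.035. By role, 6 of 9 oxidation enzymes were lower and 1 higher (median -0.22), 0 of 3 ether lipid enzymes passed (-0.025), and 2 of 4 glyoxylate and amino acid enzymes (-0.26) and both catalase and LONP2 (-0.25) were lower. Over all genes tested the median was 0.0016 and 21.6% passed, against 61.1% of the enzymes and 15.4% of the peroxins. The reductions were modest: the 11 lower members had 10.8% to 37.1% less RNA in PTPF libraries. Scaling by library totals alone gave 15 lower and 1 higher of the 31, in place of 11 and 2. The groups did not overlap for 14 enzymes and 5 peroxins, where 35.7% of all genes did not overlap.

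**Figure D2:**
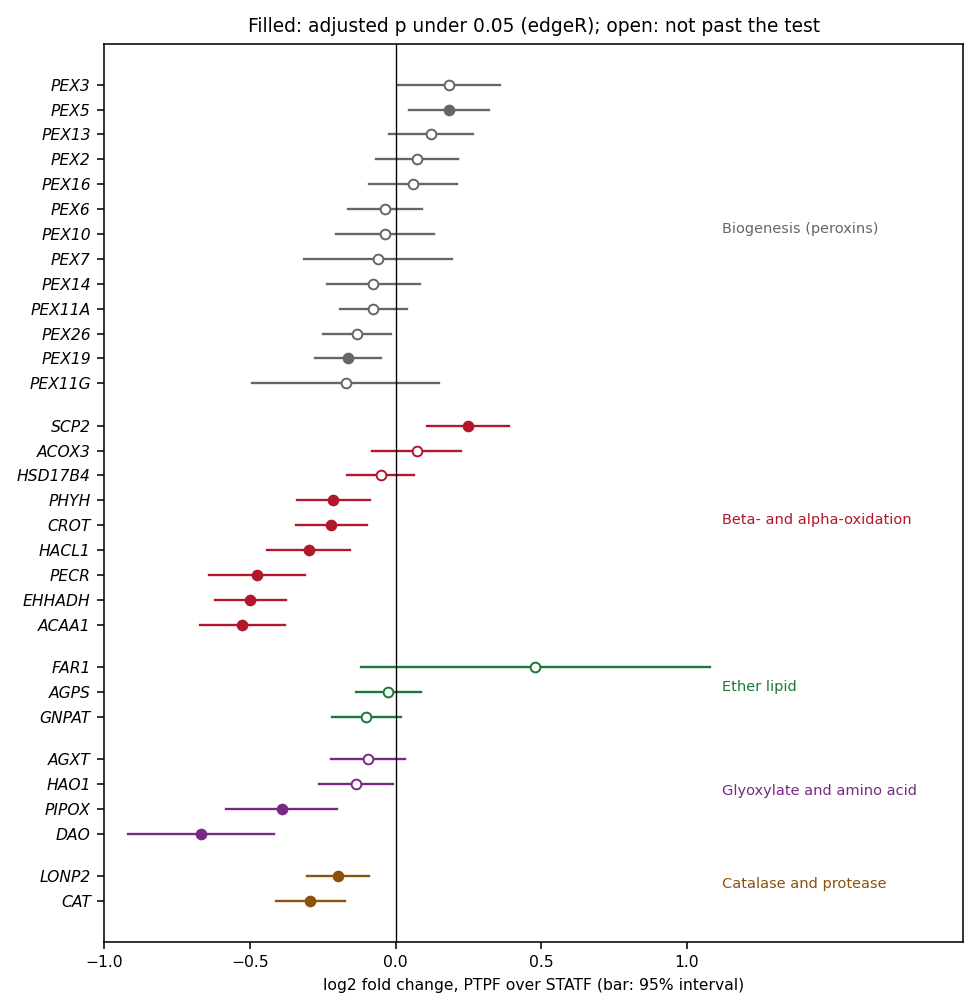
log2 fold change of each gene, PTPF over STATF, with its 95% interval. Filled points passed an adjusted p of 0.05 in edgeR. The oxidation enzymes, DAO, PIPOX, CAT and LONP2 lie mostly left of 0, and the peroxins lie around it.

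Of the 9 enzymes of beta- and alpha-oxidation, 6 were lower in PTPF libraries. EHHADH, which carries out the hydration and second oxidation of straight-chain beta-oxidation, had 149, 130.05 and 153 CPM in PTPF libraries, against 203, 202 and 204 CPM in STATF libraries. The STATF libraries lay within 3 CPM of each other and all above the PTPF libraries. Its log2 fold change was -0.50 (SE 0.059, edgeR adjusted p = 3.31e-07), 29.2% less. ACAA1, the thiolase of the last step, had 256, 206 and 251 CPM in PTPF libraries, against 354, 322 and 350.5 CPM in STATF libraries. The groups were well apart, with a log2 fold change of -0.53 (SE 0.071 and edgeR adjusted p = 7.54e-06), although 21.2% of the exon bases of ACAA1 also belong to the antisense gene DLEC1, which had 776 counts in all against 63991 for ACAA1. PECR, a trans-2-enoyl-CoA reductase, was counted with the oxidation enzymes here although it catalyses a reduction. It had 16.2, 13.4 and 14.4 CPM in PTPF libraries, against 19.9, 20.2 and 21.1 CPM in STATF libraries. Each PTPF value was below each STATF value, with a log2 fold change of -0.48 (SE 0.080 and edgeR adjusted p = 5.61e-05).

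CROT, which attaches carnitine to the shortened chains so that they can leave for the mitochondria, was lower by a smaller amount. It had 41.03, 37.5 and 38.5 CPM in PTPF libraries, against 45.5, 45.3 and 45.6 CPM in STATF libraries (log2 fold change -0.22, SE 0.060, edgeR adjusted p = 0.00759). ACOX3, the oxidase of branched chains, did not pass, at 21.9, 20.6 and 18.9 CPM in PTPF libraries, against 19.0, 19.4 and 20.0 CPM in STATF libraries. Its groups overlapped, and the 95% interval of its log2 fold change ran from -0.080 to 0.23.

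HSD17B4 and SCP2, which act on branched chains and bile acid precursors among other substrates, were not lower by the test. HSD17B4, the second bifunctional enzyme, had 320.3, 295 and 311 CPM in PTPF libraries, against 311, 327 and 321 CPM in STATF libraries. Its groups overlapped, with a log2 fold change of -0.051 (95% interval -0.17 to 0.064, edgeR adjusted p = 0.586). SCP2, whose long form is the second thiolase and whose short form carries sterols, was the one enzyme that was higher. It had 297, 250.1 and 300.2 CPM in PTPF libraries, against 227, 229.7 and 256 CPM in STATF libraries, a log2 fold change of 0.25 (SE 0.067 and edgeR adjusted p = 0.00854). PTPF replicate 2 lay below the highest STATF library, and the call ended without PTPF replicate 1 (adjusted p 0.0603), PTPF replicate 3 (0.0659), STATF replicate 1 (0.0699) or STATF replicate 2 (0.0538). Gene counts do not separate the long and short forms of SCP2, and 20.7% of its exon bases are shared with other annotated genes.

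Ratios between the paired enzymes, chosen after the values were seen, do not depend on how libraries are scaled. Their absolute size depends on the gene lengths used, and the comparison between groups does not. Per length, EHHADH over HSD17B4 was 1.05, 1.002 and 1.11 in PTPF libraries, against 1.48, 1.40 and 1.44 in STATF libraries. ACAA1 over SCP2 was 1.01, 0.961 and 0.978 in PTPF libraries, against 1.83, 1.64 and 1.60 in STATF libraries. The groups were separate for both ratios, which were 0.732-fold and 0.583-fold those of STATF libraries. An exact permutation test, two-sided, gave p = 0.1 for either ratio, and 3 against 3 libraries cannot give less. As the pairs were picked on these same values, the ratios and this p-value give no separate support.

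**Figure D3:**
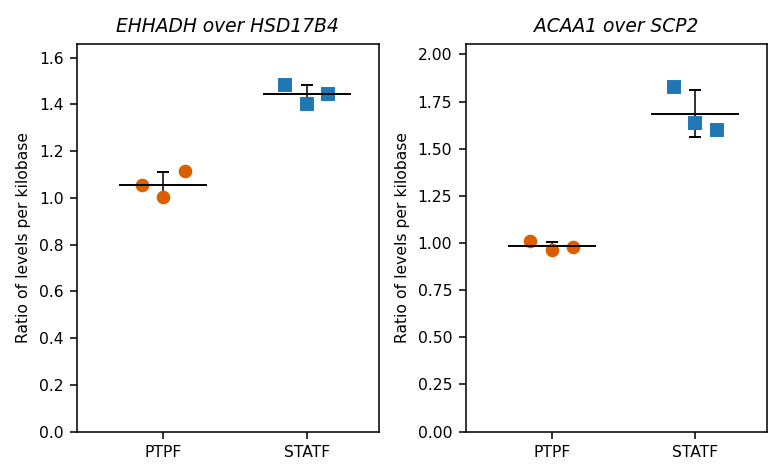
Ratio of levels per kilobase of the paired bifunctional enzymes (left) and thiolases (right), with 1 point per library and the mean and SD of each group (n = 3). PTPF libraries lie near 1 in both panels and STATF libraries between 1.40 and 1.83, values that depend on the gene lengths used.

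Alpha-oxidation removes a single carbon from branched acids such as phytanic acid before beta-oxidation can begin. HACL1, the lyase that cleaves off this carbon, had 46.6, 37.1 and 39.5 CPM in PTPF libraries, against 49.4, 51.3 and 50.7 CPM in STATF libraries. Its log2 fold change was -0.30 (SE 0.069, edgeR adjusted p = 0.00212), with PTPF replicate 1 close to the STATF libraries but below them. It shares 15.4% of its exon bases with the antisense gene BTD, which was lower as well (log2 fold change -0.43, edgeR adjusted p = 1.57e-06), and without strand information the reads of the pair cannot be told apart. PHYH, the hydroxylase that acts first, had 69.4, 59.9 and 61.9 CPM in PTPF libraries, against 71.0, 73.4 and 77.3 CPM in STATF libraries. Its log2 fold change was -0.21 (SE 0.061, edgeR adjusted p = 0.0112). That call ended without PTPF replicate 2 (adjusted p 0.0649), PTPF replicate 3 (0.0613) or STATF replicate 3 (0.0870).

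Of the 3 ether lipid enzymes 0 passed in the main edgeR test, as in DESeq2 and limma-voom, and 0 had an unadjusted p under 0.05. AGPS, which forms the ether bond, had 60.9, 63.1 and 63.0 CPM in PTPF libraries, against 63.4, 63.3 and 63.7 CPM in STATF libraries. The highest PTPF library was just below the lowest STATF library, and the 95% interval of its log2 fold change ran from -0.14 to 0.087. GNPAT, the acyltransferase of the first step, had 50.1, 46.6 and 50.5 CPM in PTPF libraries, against 51.9, 52.3 and 53.6 CPM in STATF libraries. The GNPAT groups did not overlap (log2 fold change -0.10, 95% interval -0.22 to 0.019). GNPAT passed only when libraries were scaled by totals alone (edgeR adjusted p = 0.0395). FAR1 had 31, 40 and 26 counts in PTPF libraries, against 21, 30 and 28 counts in STATF libraries. Scaled, these were 0.941, 1.09 and 0.796 CPM against 0.560, 0.720 and 0.748 CPM, with no overlap. Counts this low are too shallow to place FAR1 (log2 fold change 0.48, 95% interval -0.12 to 1.08). Of 6 ether lipid genes that act outside the peroxisome none passed in edgeR either, among them CEPT1 (log2 fold change 0.15, the 1 gene with an unadjusted p under 0.05) and SELENOI (0.12), which add the head group.

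The glyoxylate and amino acid enzymes were split. DAO, the D-amino acid oxidase, fell the most of the 31, to 4.46, 4.14 and 4.99 CPM in PTPF libraries, against 7.44, 6.70 and 7.48 CPM in STATF libraries. The groups were far apart (log2 fold change -0.67, SE 0.12, edgeR adjusted p = 0.000157), on 147 to 280 counts per library. PIPOX, which oxidises pipecolic acid and sarcosine, had 35.1, 25.8 and 33.4 CPM in PTPF libraries, against 42.9, 38.5 and 42.2 CPM in STATF libraries (log2 fold change -0.39, SE 0.090, edgeR adjusted p = 0.00404). Without PTPF replicate 2, its lowest library, the log2 fold change was -0.26 (edgeR adjusted p = 0.00567).

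HAO1, which makes glyoxylate from glycolate, and AGXT, which converts glyoxylate to glycine, did not pass. HAO1 had 61.9, 54.1 and 63.0 CPM in PTPF libraries, against 63.6, 64.6 and 68.4 CPM in STATF libraries (log2 fold change -0.14, edgeR adjusted p = 0.125). AGXT had 276, 252 and 299 CPM in PTPF libraries, against 286, 287 and 310.2 CPM in STATF libraries (log2 fold change -0.095, edgeR adjusted p = 0.312). Both passed when libraries were scaled by totals alone (adjusted p 0.0159 and 0.0458). Outside the peroxisome, 3 of 5 genes that handle glyoxylate or its sources were lower, GRHPR (log2 fold change -0.32), HOGA1 (-0.38) and PRODH2 (-0.42). LDHA, which turns glyoxylate into oxalate besides its role in glycolysis, was higher (0.57). Over all genes tested 11.6% were lower and 10.1% higher.

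Catalase, which destroys the hydrogen peroxide made by these oxidases, had 263, 239.5 and 252 CPM in PTPF libraries, against 313, 290.5 and 319.6 CPM in STATF libraries. Every PTPF library was below every STATF library (log2 fold change -0.29, SE 0.058, edgeR adjusted p = 0.000391). LONP2, the protease that clears the matrix of damaged enzymes, had 131, 134 and 136 CPM in PTPF libraries, against 154, 155 and 152 CPM in STATF libraries, with little spread in either group (log2 fold change -0.20, SE 0.053, edgeR adjusted p = 0.00676). Its adjusted p was 0.0501 without STATF replicate 2, and 21.0% of its exon bases are shared with other genes, mainly the antisense gene SIAH1. Among 10 tested genes that remove peroxide or superoxide elsewhere in the cell, or supply reductant for this, 3 were lower and 1 higher. Over all genes tested 11.6% were lower and 10.1% higher. The lower ones, GSR (log2 fold change -0.32), TXN (-0.21) and TXNRD1 (-0.20), belong to the systems that supply reductant. SOD2 was higher (0.52). The other 6, which are glutathione peroxidases, peroxiredoxins and a superoxide dismutase, did not pass.

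**Figure D4:**
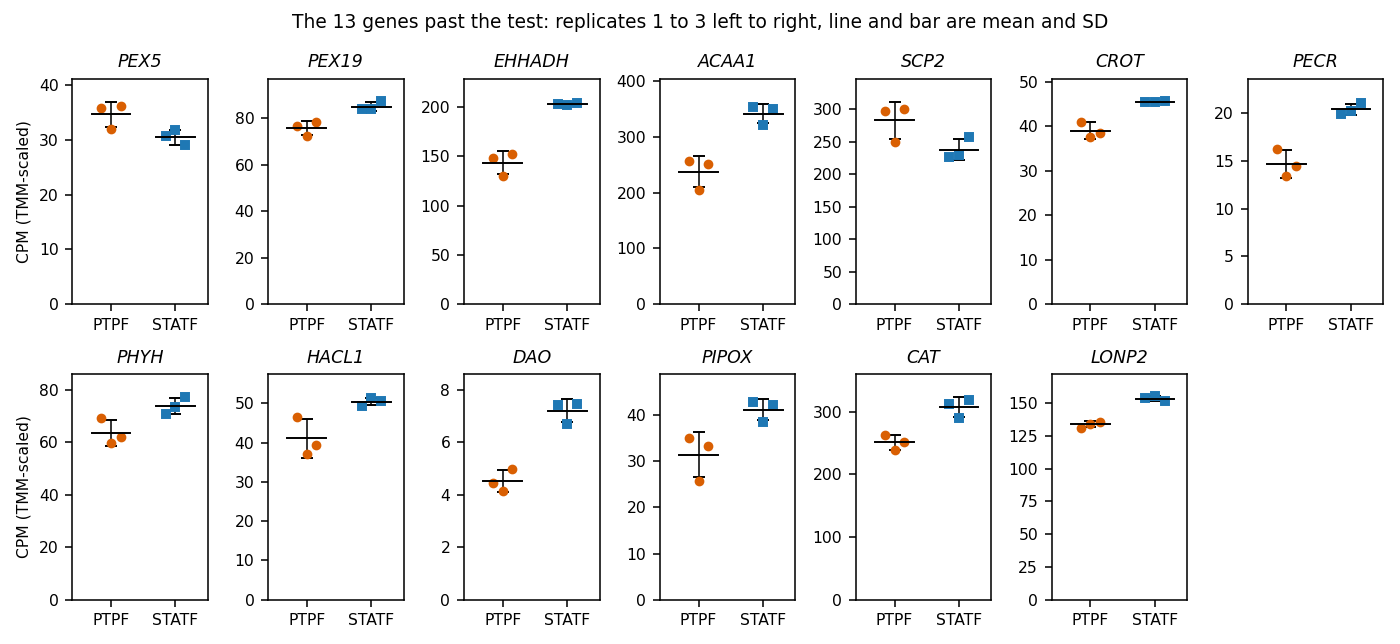
CPM of the 13 genes past the test, 1 panel each, from 0, with 1 point per library and the mean and SD of each group (n = 3). PTPF libraries are below STATF libraries in 11 panels and above in PEX5 and SCP2, where the SCP2 points overlap.

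Both import receptors were measured among the peroxins. PEX5, the receptor for the signal at the protein's end, had 35.8, 31.9 and 36.1 CPM in PTPF libraries, against 30.7, 31.7 and 28.99 CPM in STATF libraries. PTPF replicate 2 lay only just above the highest STATF library. The log2 fold change was 0.18 (SE 0.067, edgeR adjusted p = 0.0495), and the call ended under 10 of 15 alternatives. Leaving out PTPF replicate 1 or 3 or STATF replicate 1, 2 or 3 gave adjusted p-values of 0.104, 0.186, 0.115, 0.0643 and 0.197. PEX7, the receptor for the signal near the start, had 5.89, 5.01 and 5.73 CPM in PTPF libraries, against 5.33, 6.17 and 5.80 CPM in STATF libraries (log2 fold change -0.060, 95% interval -0.31 to 0.19).

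The docking subunits PEX13 and PEX14, which receive the loaded receptors at the membrane, did not pass. PEX13 had 40.3, 34.6 and 37.1 CPM in PTPF libraries, against 33.2, 32.1 and 37.7 CPM in STATF libraries (log2 fold change 0.12), and PEX14 had a log2 fold change of -0.076. The ubiquitin ligase subunits PEX2 (0.075) and PEX10 (-0.035), which mark PEX5 for recycling, lay near 0, and 39.1% of the exon bases of PEX10 also belong to the antisense gene RER1. PEX6, at 83.6, 71.5 and 85.0 CPM in PTPF libraries, against 84.7, 81.1 and 80.1 CPM in STATF libraries, showed overlapping groups. Its membrane anchor PEX26 had 54.1, 52.5 and 54.4 CPM in PTPF libraries, against 59.5, 60.3 and 56.6 CPM in STATF libraries. The PEX26 groups did not overlap, but the difference missed the threshold (log2 fold change -0.13, edgeR adjusted p = 0.1). PEX26 passed only when libraries were scaled by totals alone (edgeR adjusted p = 0.0134). It shares 14.2% of its exon bases with other genes.

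Of the peroxins that place proteins in the membrane, 1 passed. PEX19, the cytosolic chaperone of membrane proteins, had 76.6, 72.5 and 78.4 CPM in PTPF libraries, against 83.8, 83.8 and 87.4 CPM in STATF libraries, with no overlap (log2 fold change -0.16, SE 0.055, edgeR adjusted p = 0.0319). That call ended without PTPF replicate 2 (adjusted p 0.140) or STATF replicate 1 (0.0725), 2 (0.0845) or 3 (0.139). PEX3, its docking site on the membrane, had 12.8, 15.1 and 13.9 CPM in PTPF libraries, against 12.05, 12.7 and 12.1 CPM in STATF libraries (log2 fold change 0.18, edgeR adjusted p = 0.133). PEX16, which recruits PEX3, had a log2 fold change of 0.060. The division factors PEX11A, a PPARA target in rodents, and PEX11G had log2 fold changes of -0.076 and -0.17. PEX11A stood at 56.8, 54.3 and 55.1 CPM in PTPF libraries, against 57.7, 57.8 and 59.6 CPM in STATF libraries, apart by less than 1 CPM. Over the 11 peroxins that did not pass, the 95% intervals lay between -0.49 and 0.36 on the log2 scale, the lowest end being that of PEX11G and the highest that of PEX3.

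PTPF replicate 2 was the lowest of the PTPF libraries in 24 of the 31 genes, 10 of 13 peroxins and 14 of 18 enzymes. Relative to each gene's own mean, the median deviation of the oxidation enzymes on the log2 scale was 0.018, -0.19 and -0.15 in PTPF libraries, against 0.11, 0.11 and 0.16 in STATF libraries. That of the peroxins was 0.061, -0.071 and 0.0071 in PTPF libraries, against -0.012, 0.0045 and 0.020 in STATF libraries. Without PTPF replicate 2, 9 members were lower and 2 higher, and the class medians were -0.19 for oxidation enzymes and 0.016 for peroxins. The reductions in EHHADH (log2 fold change -0.42, edgeR adjusted p = 2.41e-07) and ACAA1 (-0.42, edgeR adjusted p = 5.93e-07) passed without it.

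**Figure D5:**
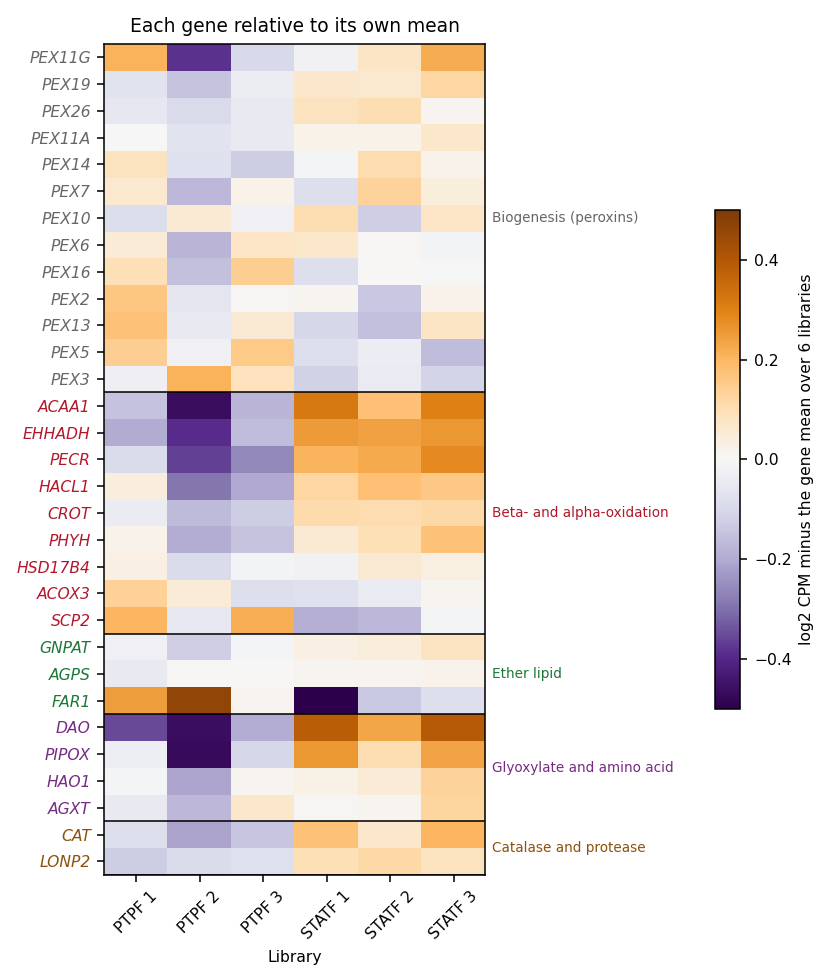
log2 CPM of each gene minus its mean over the 6 libraries, with PTPF libraries left of STATF libraries, grouped by role. Most oxidation rows change colour between the groups while the peroxin rows vary within them. Purple marks low values, and PTPF replicate 2 is the lowest PTPF library in 14 of 18 enzymes.

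Of 42 other peroxisomal genes, 6 were lower and 1 was higher (median log2 fold change -0.056), where 21.6% of all genes passed. The lower ones included BAAT, which conjugates bile acids, at 79.6 ± 4.97 CPM in PTPF and 155 ± 14.7 CPM in STATF libraries (SD, n = 3 each). The glutathione transferase GSTK1 (log2 fold change -0.39) was lower too.

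Mitochondrial beta-oxidation, the larger fat-burning route, held 17 tested genes, of which 10 were lower and the other 7 did not pass (median log2 fold change -0.25). Over all genes tested 11.6% were lower and 10.1% higher, the shares to set beside each count in this paragraph. CPT1A, the gate of entry, stood at 209.6 ± 4.05 CPM in PTPF and 283 ± 11.7 CPM in STATF libraries, and HADHA, of the trifunctional protein, at 529 ± 34.8 CPM in PTPF and 683 ± 10.6 CPM in STATF libraries (SD, n = 3 each). Of 11 PPAR receptors, partners and coregulators 4 were lower and 1 higher (median log2 fold change -0.14). The coactivator PPARGC1A (log2 fold change -0.47), the receptor ESRRA (-0.21) and the corepressor NCOR1 (-0.22) were among the lower ones and PPARD (0.22) was the higher one. PPARA itself, named after its value was seen, was the 4th, with a log2 fold change of -0.22 (edgeR adjusted p = 0.0311). Of 14 liver targets of PPARA (median -0.17), 7 were lower and 3 higher. Among the lower were CYP4A11 of omega-oxidation (log2 fold change -1.52, on 41 to 177 counts per library) and CPT1A (-0.43). The transcription factor CREB3L3 (0.93) was among the higher. This list shares CPT1A and some other genes with the mitochondrial one, so the counts of the 2 lists overlap.

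Promoter windows from 250 bases before to 50 after the gene's start were at hand for 27 of the 31 genes (RefSeq, GRCh38.p14). The repeat bound by PPAR and RXR, 2 copies of AGGTCA with any 1 base between them, was sought on both strands. With up to 2 mismatches in its 12 fixed letters it was found in 2.99% of 27305 promoters and in 2 of the 27, AGPS and AGXT, neither of which passed the test. The STAT motif TTCNNNGAA, which reads alike on both strands, was found in 7.88% of all promoters and in 0 of the 27. Both repeats are shown with the match in capitals, since no other member promoter held either motif. The windows printed, chr2:177392723-177392765 and chr2:240868751-240868793, are read on the plus strand, and the repeat itself matches on the minus strand in both, so the capitals are its reverse complement. A missing match says only that these letters are not in these windows.
AGPS: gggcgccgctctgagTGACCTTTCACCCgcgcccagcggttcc
AGXT: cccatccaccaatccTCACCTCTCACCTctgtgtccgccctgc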

How the data were processed

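The table that the authors deposited holds raw gene counts, 1 column for each library, and each gene's length, an other unit that was used for levels per kilobase. The submitters' processing notes name CASAVA 1.8, HISAT2 2.0.5, featureCounts 1.5.0-p3 and GRCh38. How strand and multi-mapping reads were handled, and which annotation was used, is not given in the sources used here. Of 58735 genes, 58690 have the same position in GENCODE release 29, from which exon overlaps were computed.

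The main test was the robust quasi-likelihood test of edgeR 4.0.16 in R 4.3.3, on group alone, after filterByExpr and TMM scaling, with Benjamini-Hochberg adjustment over 17844 genes and a threshold of 0.05. Alternatives were RLE, upper-quartile and library-total scaling, no filter, DESeq2 1.42.0, a minimum of 50 counts in 3 libraries, limma-voom 3.58.1, a replicate block, an adjusted p of 0.01 and leaving out each library. Ratios used the exact permutation test, and figures matplotlib 3.10.9. On simulated data for PTPF against STATF (17556 genes) edgeR recovered 80% of 50 genes changed 1.5-fold and 98% of 50 changed 2-fold, so smaller changes can be missed. Of the calls made there, 6.9% were false. Only 200 genes were changed in the simulation, against 3863 that passed in the data, so its rates need not hold for the real test. Replicates always differed by more than sampling noise, with a chi-square per degree of freedom of at least 4.32. Intervals and limits cover counting error and the spread between libraries only, as PCR copies were not told apart by molecular identifiers.

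The 31 members and all lists were chosen with earlier results of these data known, so no list is independent evidence. Named genes are all members, the siRNA targets and, from each other list, the 4 or fewer that passed with the lowest adjusted p (where 0 passed, the 2 with the highest level). A few genes that this rule took are not reported here.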

Additional observations from a re-analysis of the deposited data

How the results depend on the processing

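Of the 13 members past the test, 8 (EHHADH, ACAA1, CROT, PECR, HACL1, DAO, PIPOX and CAT) kept direction and call under all 15 alternatives, and none of the 13 changed direction. PEX5 lost its call with no filter (adjusted p 0.0873), DESeq2 (0.0726), limma-voom (0.0629) and library totals (0.225), so that members called higher were 1 and peroxins called were 1 with no filter, DESeq2 and limma-voom. With library totals 1 member was higher and 15 lower, 1 ether lipid and 4 glyoxylate enzymes passed, and 1164 genes in all were higher, in place of 1801. The median of all genes was then -0.062, and the class medians -0.10 for peroxins, -0.089 for ether lipid enzymes and -0.31 for catalase and LONP2. An adjusted p of 0.01 left 2551 genes, 1137 of them higher, by construction, with 1 member higher and 0 peroxins. Without each library in turn, 9 to 11 members were lower, 0 to 2 higher and 0 to 1 peroxins passed, with 2830 to 3808 genes called in all. Members that did not pass changed sign in 4 cases: PEX16 with library totals (-0.0045), PEX6 (0.047, range without each library -0.080 to 0.047) and PEX7 (0.016, range -0.11 to 0.016) without PTPF replicate 2, and PEX10 (0.0068) without STATF replicate 1. The cause of these changes was not tested.

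Deviations of libraries with the same replicate number had correlations of 0.035, 0.058 and 0.00077. Those with different numbers had -0.070 to 0.033. With deviations taken from 3 libraries per group, these values cannot tell whether a number marks a shared culture or batch, and no pairing was assumed. A replicate block gave 4145 calls in place of 3863, with 11 members lower and 2 higher as before. The log2 difference of the EHHADH to HSD17B4 ratio ranged from -0.49 to -0.41 and that of ACAA1 to SCP2 from -0.82 to -0.72 without each library, an alternative added after the data were seen. FAR1, with 21 to 40 counts per library, did not pass a filter of 50 counts.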
